A study of Homo sapiens with 2 samples.

Results

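Tubulin isotypes were followed in poly(A) RNA from H9, an established line of human T lymphocytes, with and without doxorubicin. The 10 genes were taken by their symbols in the count table: TUBA1A, TUBA1B, TUBA1C and TUBA4A for alpha-tubulin, TUBB, TUBB2A, TUBB3, TUBB4B and TUBB6 for beta-tubulin, and TUBG1 for gamma-tubulin. All 10 were among the 19220 symbols of the table. 1 library came from H9 cells exposed to 0.05 µM doxorubicin for 6 h and 1 from H9 cells at 0 h, untreated. The labels call both wild type. Doxorubicin is a chemotherapy drug of the anthracycline class and poisons topoisomerase II. Each condition has 1 library, and no untreated library was taken at 6 h. The drug and the 6 h between the libraries therefore cannot be told apart, and "with doxorubicin" covers both.

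Alpha- and beta-tubulin form the dimer that polymerises into microtubules, which carry cargo in resting cells and build the spindle in mitosis. Gamma-tubulin, within a ring-shaped complex, starts new microtubules. Vertebrates express several alpha and beta isotypes from separate genes, which differ mostly in their acidic C-terminal tails, where tubulin is glutamylated and where the last tyrosine of most alpha isotypes can be removed. Cells also hold tubulin mRNA in check: when free dimer is abundant, TTC5 recognises the first residues of nascent tubulin on the ribosome and the mRNA is degraded.

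The starts of the coding sequences, and the ends of those of the beta members, show some of the places where members are alike or differ. They were read from the GENCODE release 29 transcripts of the GRCh38 assembly, 5′ to 3′. In the first 30 coding bases the first 4 codons are in capitals. These codons are the part read by autoregulation, and they encode methionine, arginine, glutamate and then cysteine in all 4 alpha members or isoleucine in all 5 beta members, and neither run in TUBG1. TUBA1A and TUBA1C have the same 30 bases as TUBA1B.
TUBA1B: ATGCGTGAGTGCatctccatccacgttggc
TUBA4A: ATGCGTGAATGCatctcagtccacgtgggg
TUBB: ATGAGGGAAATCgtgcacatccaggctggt
TUBB2A: ATGCGCGAGATCgtgcacatccaggcgggc
TUBB4B: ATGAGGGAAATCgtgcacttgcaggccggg
TUBG1: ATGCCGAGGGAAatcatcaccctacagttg

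The last 60 coding bases before the stop codon, with the last codon in capitals, encode the tails of the beta isotypes and show how these differ. Of the last 20 codons, 11 encoded aspartate or glutamate in each beta member, against 4 in TUBG1.
TUBB: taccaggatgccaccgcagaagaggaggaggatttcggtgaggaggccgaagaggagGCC
TUBB2A: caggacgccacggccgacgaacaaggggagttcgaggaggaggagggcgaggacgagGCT
TUBB3: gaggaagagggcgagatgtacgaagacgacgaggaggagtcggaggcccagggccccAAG
TUBB4B: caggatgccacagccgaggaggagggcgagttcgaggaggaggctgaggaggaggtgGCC
TUBB6: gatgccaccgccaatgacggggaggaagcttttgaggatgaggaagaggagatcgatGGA

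Coding lengths ran from 1332 to 1353 bases, whereas transcript lengths ran from 1595 bases for TUBB2A to 3001 for TUBA1C. The coding sequences of TUBA1A and TUBA1B were 97.3% identical and those of TUBA1B and TUBA1C 96.9%, against 85.8% for TUBA1B and TUBA4A. TUBB and TUBB4B were 84.4% identical, and TUBB2A and its neighbour TUBB2B 98.2%. Such likeness matters for counting. Of all stretches of 50 bases along its transcript, TUBA1B shared 62.7% with transcripts of other genes, TUBA1A 41.1% and TUBA1C 25.1%. The share was 65.5% for TUBB2A, 29.9% for TUBG1, 18.2% for TUBB, mostly with the pseudogene TUBBP1, 9.89% for TUBB4B, 5.25% for TUBA4A and 0.993% for TUBB6. TUBB3 shared 89.4% with a readthrough gene at the same locus. TUBA1A and TUBA1C also overlap on opposite strands, over 14.3% of the exons of TUBA1A, and 18.1% of those of TUBA4A are overlapped by STK16 or TUBA4B. The sources used here do not give how reads that match several genes were assigned, or whether strand was used, so the split of counts between TUBA1A, TUBA1B and TUBA1C, and the values of TUBB2A and TUBB3, are uncertain. The same holds for comparisons of level between genes within a library, such as alpha against beta.

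The library with doxorubicin held 50174434 counts and the untreated library 33730703. Of 10 T cell markers, 9 were in the table and 6 had at least 100 counts over both libraries, among them CD3E with 8864 counts with doxorubicin and 7149 untreated. Summed, the T cell markers stood at 827 CPM (counts scaled to library size after TMM, the trimmed mean of M-values) with doxorubicin and 816 untreated. The 6 measured markers moved in both directions. Their scaled folds, doxorubicin over untreated, were 2.16 for CD3G, 1.40 for LCK, 1.17 for CD5, 1.16 for CD4, 0.795 for CD3E and 0.669 for CD3D. CD2, CD7 and CD28 had at most 13 counts in either library. CD79A, listed as a B cell marker, had 6628 and 6007 counts, while PAX5 was at 0 in both. Summed markers stood, with doxorubicin and then untreated, at 150.2 and 205.7 CPM for B cells, 2.76 and 1.79 for myeloid cells, 0.0779 and 0.212 for erythroid cells and platelets, 69.8 and 84.5 for epithelium and fibroblasts, and 14.1 and 15.4 for neurons. Of the epithelial and fibroblast markers, EPCAM alone stood at 63.0 and 78.6 CPM. There was no second library of either condition, so no test between conditions was possible and no p-value is given. In its place a gene was called higher or lower when its TMM-scaled counts differed by at least 1.5-fold and its 95% exact binomial (Clopper-Pearson) interval left out a ratio of 1. These intervals cover counting error only and treat every count as a separate molecule. PCR copies of 1 molecule could not be recognised, so the intervals may be too narrow even for counting error. The spread between cultures was not measured. In bulk RNA, fewer cells with an mRNA and less of it per cell cannot be told apart.

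As a share of the library, tubulin mRNA with doxorubicin was nearly that of untreated cells. Alpha and beta members summed had a log2 ratio, doxorubicin over untreated, of 0.02 (0.02 to 0.03). They held 0.689% of all counts with doxorubicin and 0.646% untreated. The amount of mRNA per cell was not measured. Genes with at least 100 counts over both libraries were taken as measured, 9 of the 10 members and 11244 genes in all. Among the 9, 1 was called higher and 0 lower. The gene called higher, TUBB2A, would have missed the count minimum at its untreated level in both libraries. Over all measured genes 7.26% were called higher and 9.57% lower, so both counts lie near that background. The median log2 ratio of the 9, doxorubicin over untreated, was 0.02, with a range from -0.40 for TUBG1 to 0.75 for TUBB2A. The median of all measured genes was 0.007.

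Levels were dominated by 1 alpha and 1 beta isotype. They are given as CPM per kilobase of transcript. TUBA1B (chr12:49127782-49131397, minus strand), the main alpha isotype of most dividing cells, stood at 1464 with doxorubicin and at 1393 untreated. TUBB (chr6:30720201-30725426, plus strand), also called beta-I, stood at 1346 with doxorubicin and at 1327 untreated. Among 18700 genes with a transcript length, TUBA1B ranked 19 with doxorubicin and 42 untreated, and TUBB 27 and 45. TUBB4B (chr9:137241213-137243707, plus strand), a widely expressed beta isotype also found in cilia, followed at 179 with doxorubicin and 214 untreated. Coordinates here are those of GRCh38, while the counts were made on hg19.

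TUBA1A, TUBG1 and TUBA1C formed the next step. TUBA1A (chr12:49184796-49189324, minus strand), prominent in developing neurons, stood at 95.95 with doxorubicin and at 85.6 untreated. TUBG1 (chr17:42609676-42615234, plus strand) stood at 83.6 with doxorubicin and at 110.1 untreated. TUBA1C (chr12:49188736-49274603, plus strand), an isotype of many tissues, stood at 72.6 with doxorubicin and at 75.99 untreated. TUBA1A therefore came before TUBG1 with doxorubicin and after it in untreated cells. Neighbours in the order had counting intervals that did not overlap in either library. Those intervals leave out how reads matching several genes were assigned, and the shared stretches differ, at 41.1% for TUBA1A, 29.9% for TUBG1 and 25.1% for TUBA1C. The order is therefore not settled.

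TUBA4A (chr2:219249711-219278170, minus strand), an alpha isotype also found in muscle and platelets, came next, at 22.9 with doxorubicin and 26.2 untreated. TUBB3 (chr16:89921392-89938761, plus strand), the beta-III isotype used as a neuronal marker, stood at 1.93 with doxorubicin and 1.77 untreated. TUBB2A (chr6:3153669-3157526, minus strand), a beta isotype abundant in brain, stood at 1.001 with doxorubicin and 0.590 untreated. TUBB6 (chr18:12307669-12344320, plus strand), the beta-V isotype, had 2 counts with doxorubicin and 0 untreated, where a count of 0 allows up to 3 counts, or 0.0911 CPM, so it gives no ratio. Of the 7 neuronal markers RBFOX3 and SNAP25 were measured, and SYT1 and STMN2 were at 0 in both libraries. Per kilobase of coding sequence TUBB came first in both libraries, at 2699 with doxorubicin and 2659 untreated, ahead of TUBA1B at 1760 and 1675. The order of these 2 thus depends on the length used, as does that of TUBA1C, which by coding length came before TUBA1A and TUBG1.

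**Figure D1:**
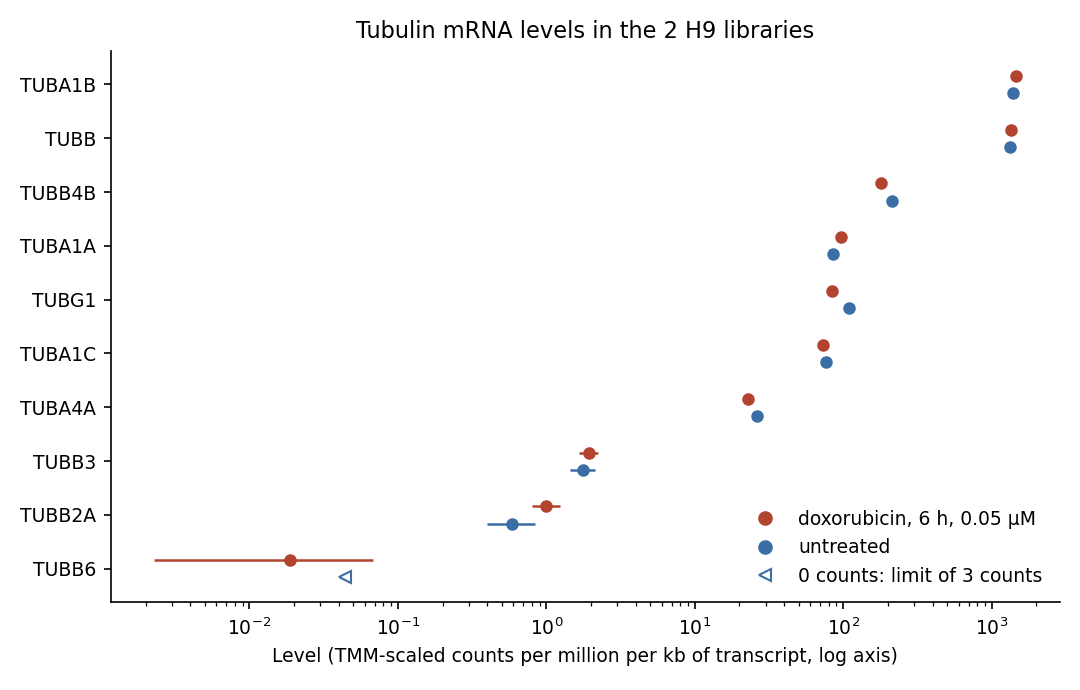
Levels of the 10 tubulin mRNAs on a log axis, in TMM-scaled CPM per kilobase of transcript, for the library with doxorubicin (upper point of each pair) and the untreated library (lower point), with 95% Poisson counting intervals. TUBA1B and TUBB lie at 1327 to 1464 in both libraries, TUBB3 and TUBB2A at 0.590 to 1.93, and TUBB6 at 2 counts with doxorubicin and 0 untreated, drawn at its limit of 3 counts.

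Among alpha isotypes no member was called. TUBA1B had 122343 counts with doxorubicin and 74665 untreated, which is 2382 and 2266 CPM. Its log2 ratio was 0.07 (0.06 to 0.08). TUBA1A had 9439 counts with doxorubicin and 5398 untreated, a log2 ratio of 0.17 (0.12 to 0.21). TUBA1C, at 11189 and 7513 counts, was at -0.07 (-0.11 to -0.02), but at 0.002 under scaling by total counts, so its sign is not settled. TUBA4A, at 2547 and 1865 counts, was at -0.19 (-0.28 to -0.10).

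Summed over the 4 genes, alpha-tubulin had 145518 counts with doxorubicin and 89441 untreated. Its log2 ratio was 0.06 (0.05 to 0.07), a fold of 1.04. If reads that match several genes were kept, summing sets aside how they were split among these genes, though not any split with pseudogenes. If such reads were dropped, the sum lacks them too. The sum of TUBA1A, TUBA1B and TUBA1C alone was at 0.07 (0.05 to 0.08), and the alpha members other than TUBA1B were at 0.008 (-0.02 to 0.04).

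Among beta isotypes TUBB had 184664 counts with doxorubicin and 116688 untreated, or 3595 and 3542 CPM. Its log2 ratio was 0.02 (0.01 to 0.03), or -0.05 with GC content, transcript length and coding length adjusted. TUBB4B had 15059 counts with doxorubicin and 11564 untreated, a log2 ratio of -0.26 (-0.29 to -0.22), which is short of the size limit. TUBB3 had 175 counts with doxorubicin and 103 untreated, at 0.12 (-0.24 to 0.49), so a difference within that interval was not detectable at this depth.

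TUBB2A was the member called higher. It had 82 counts with doxorubicin and 31 untreated, a 1.68-fold higher scaled count (1.11 to 2.65). The call rests on few counts: with a 99% interval the ratio no longer excluded 1. TUBB2A also passed the count minimum only through its doxorubicin count. At its untreated level in both libraries it would not have been measured. Its place among the measured members thus depends on the difference it was called for. With no count minimum 1 member was still called higher. TUBB2B, which shares 60.3% of the stretches of TUBB2A, had 10 counts with doxorubicin and 5 untreated, and the sum of both genes was 1.63-fold higher (1.10 to 2.48). In beta-tubulin as a whole these genes carry almost no weight.

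Summed over the 5 genes, beta-tubulin had 199982 counts with doxorubicin and 128386 untreated, a log2 ratio of -0.001 (-0.01 to 0.009), or 0.07 under scaling by total counts. Without TUBB the remaining 4 were at -0.25 (-0.29 to -0.22), carried by TUBB4B. Alpha members made up 42.1% of alpha and beta counts together with doxorubicin (41.95 to 42.3) and 41.1% untreated (40.9 to 41.3). Per kilobase of transcript the alpha to beta ratio was 1.08 with doxorubicin and 1.02 untreated.

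TUBG1 had 6915 counts with doxorubicin and 5844 untreated, or 134.6 and 177.4 CPM. Its log2 ratio of -0.40 (-0.45 to -0.35) was the lowest of the members, a fold of 0.759 that is not past the 1.5-fold limit. Adjusted for transcript length it was at -0.14. With the limit set at a ratio of 5 to 4 it was called lower and TUBB2A stayed the single member called higher, against 20.4% of measured genes called higher and 21.5% lower under that limit. TUBG2, its close relative, shares 29.1% of the stretches of TUBG1, and both summed were at -0.38 (-0.43 to -0.33). For every 1000 counts of alpha and beta members there were 20.01 of TUBG1 with doxorubicin and 26.8 untreated.

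**Figure D2:**
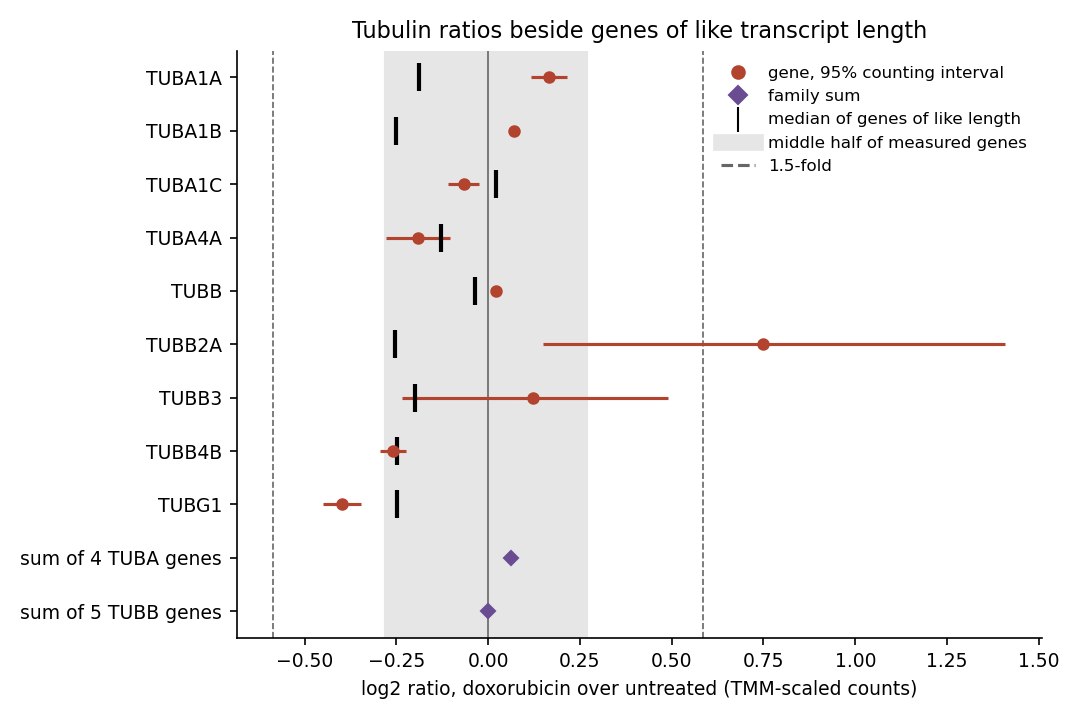
Log2 ratios of doxorubicin over untreated for the 9 measured tubulin genes and for the alpha and beta sums, with 95% counting intervals (hidden where smaller than the symbol). Black ticks give the median of measured genes whose transcripts are within 10% of that gene's length, the grey band spans the lower to the upper quartile of all measured genes, and dashed lines mark 1.5-fold; only TUBB2A lies past a dashed line, and TUBG1 is the lowest at -0.40.

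Within each family the mix of isotypes was also nearly the same. Such shares do not depend on the scaling between libraries, but those given here are not adjusted for transcript length. TUBA1B made up 84.1% of alpha counts with doxorubicin (83.9 to 84.3) and 83.5% untreated (83.2 to 83.7). TUBA1A made up 6.49% (6.36 to 6.61) with doxorubicin and 6.04% (5.88 to 6.19) untreated. TUBA1C made up 7.69% (7.55 to 7.83) with doxorubicin and 8.40% (8.22 to 8.58) untreated. TUBA4A made up 1.75% (1.68 to 1.82) with doxorubicin and 2.09% (1.99 to 2.18) untreated. For each of these 4 the counting intervals of the libraries did not overlap, although the shifts were at most 0.711 percentage points.

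In the beta family TUBB held a larger share with doxorubicin and TUBB4B a smaller one. TUBB made up 92.3% (92.2 to 92.5) with doxorubicin and 90.9% (90.7 to 91.0) untreated. TUBB4B made up 7.53% (7.41 to 7.65) with doxorubicin and 9.01% (8.85 to 9.17) untreated. TUBB3 held 0.0875% with doxorubicin and 0.0802% untreated, with overlapping intervals, and TUBB2A 0.0410% and 0.0241%. With the beta genes outside the members counted too, TUBB4A held 2.75% (2.68 to 2.82) with doxorubicin and 3.68% (3.58 to 3.78) untreated. On that base TUBB held 89.8% with doxorubicin and 87.5% untreated, and TUBB4B 7.32% and 8.67%. The transcripts of TUBB and TUBB4B differ in length, at 2670 and 1637 bases. Adjusted for transcript length, their log2 ratios were 0.05 and -0.01, against 0.02 and -0.26 before. The larger share of TUBB thus goes in large part with length, and its cause was not tested. Whether shifts of this size lie outside the spread between cultures was not measured.

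**Figure D3:**
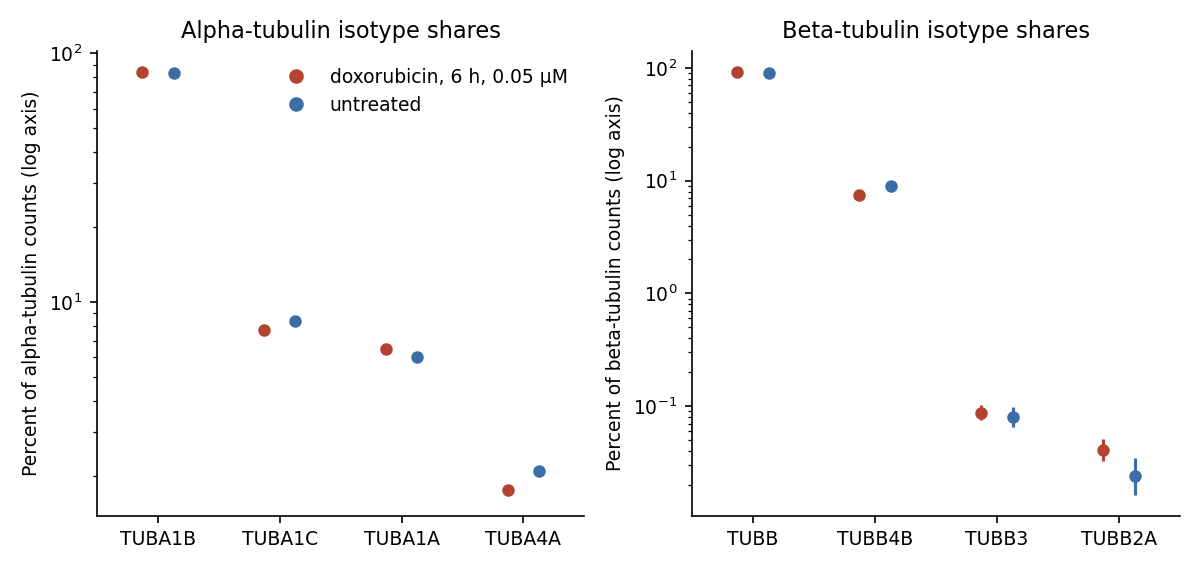
Percent of the counts of the 4 alpha members (left) and 5 beta members (right) held by each gene, on log axes, with 95% Clopper-Pearson intervals, in the library with doxorubicin (left point of each pair) and the untreated library (right point). TUBB6, at 2 and 0 counts, is not drawn; TUBA1B stays at 83.5 to 84.1% and TUBB at 90.9 to 92.3%.

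Across the table the ratio went with transcript length (Spearman's rho 0.54 over 11030 genes, which share the same 2 libraries). Transcripts of the members are shorter than the median of 3090 bases, with TUBA1C, at 3001, and TUBB, at 2670, closest to it. The 766 genes within 10% of the length of TUBA1B had a median log2 ratio of -0.25 and quartiles of -0.48 and -0.02, and TUBA1B, at 0.07, lay above the upper one. TUBA1A, at 0.17, likewise lay above the upper quartile of its 966 neighbours, 0.03. TUBB4B, at -0.26, lay at the median of its neighbours, -0.25. TUBG1, at -0.40, lay between the quartiles of its own (-0.48 and -0.02), and so did TUBB at 0.02 (-0.24 and 0.19). Subtracting the trend with transcript length moved the log2 ratios of TUBA1B to 0.32, TUBA1A to 0.34 and TUBB3 to 0.34. It moved those of TUBG1 to -0.14, TUBB4B to -0.01 and TUBA4A to -0.07. TUBB was then at 0.05, TUBA1C at -0.08 and TUBB2A at 1.01, still the single member called. The part of length in these ratios was not tested beyond this adjustment.

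Genes that fold, assemble and use tubulin were listed in 10 groups, and 109 of the 119 listed genes were measured. Of these 5 were called higher and 20 lower, against 7.26% higher and 9.57% lower of all measured genes, with a median log2 ratio of -0.02. Higher calls were thus 20% of the calls, against 30.8% under scaling by total counts, which gave 8 higher and 18 lower. Over all measured genes 816 were called higher and 1076 lower. Scaling by total counts raised every log2 ratio by 0.07, and calls over all genes were not counted under it. Adjustment for transcript length was an alternative chosen with the data known. After it, 2 were called higher and 4 lower, against 551 higher and 526 lower of the 11030 measured genes with lengths.

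Of the tubulin genes that are not members, 5 of 13 were measured and none was called, with a median of -0.36. TUBB4A, the beta-IVa isotype best known from brain, had 5654 counts with doxorubicin and 4906 untreated, a log2 ratio of -0.44 (-0.49 to -0.38). Per kilobase it stood at 43.1 with doxorubicin and 58.4 untreated, above TUBB3, TUBB2A and TUBB6. TUBE1, epsilon-tubulin of the centriole, was at -0.36 (-0.44 to -0.28).

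Prefoldin, which hands unfolded tubulin to the chaperonin, had 5 of 6 genes called lower, with a median of -0.87. PFDN2 was 2.22-fold lower (2.13 to 2.32), with 3315 counts with doxorubicin and 4725 untreated, and PFDN4 1.87-fold lower (1.74 to 2.01). PFDN1, PFDN5 and PFDN6 were the others, and VBP1 was at -0.38. Other genes overlap 32.2% of the exons of PFDN6. The median transcript length of prefoldin was 1100 bases, and after adjustment for transcript length the median was -0.35 with PFDN4 the single gene called, at -0.60, and PFDN2 at -0.45. With GC content, transcript length and coding length adjusted together PFDN2 was the single gene called, at -0.60, and PFDN4 was at -0.23, so neither call held under both adjustments. The CCT chaperonin, which folds actin and tubulin, had 1 of 10 called lower and a median of -0.01. That gene was PDCL3, a phosducin-like cofactor that shares 26.4% of its stretches with other genes, at 1.78-fold lower (1.64 to 1.93). Adjusted for transcript length it was at -0.48, and with GC content and coding length added at -0.55, not called under either.

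Folding cofactors, which join alpha to beta after the chaperonin, had 2 of 7 called lower and a median of -0.42. TBCA, which holds beta-tubulin, was 1.84-fold lower (1.77 to 1.91), and TBCB, which holds alpha-tubulin, 1.56-fold lower (1.51 to 1.61) and overlaps POLR2I over 12.5% of its exons. Adjusted for transcript length they were at -0.18 and -0.34 and not called. TBCEL, a TBCE-like protein that destabilises tubulin, was at 0.38 and was called higher after that adjustment, at 0.71, but it shares 69.8% of its stretches with other genes.

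The gamma-tubulin complex and its anchors had 2 of 13 genes called higher, 3 lower and a median of 0.02. The scaffolds AKAP9 and PCNT, which tether the complex to the Golgi and the centrosome, were 1.87-fold (1.76 to 1.99) and 1.68-fold higher (1.59 to 1.76). The small subunits MZT2B and MZT2A were 1.91-fold (1.86 to 1.95) and 1.84-fold lower (1.79 to 1.90), and they share 21.8% and 33.6% of their stretches with other genes. SMPD4 overlaps 44.9% of the exons of MZT2B. MZT1 was the third gene called lower, at 1.71-fold. The transcripts of AKAP9 and PCNT are 12471 and 10560 bases long and those of MZT2A and MZT2B 624 and 933. AKAP9, PCNT, MZT2A and MZT2B were not called after adjustment for transcript length, and MZT1 was, at -0.68. With GC content and both lengths (transcript and coding) adjusted together MZT1 was at -0.01, and no gene of the complex was called.

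The 4 genes of tubulin mRNA autoregulation had 1 called higher and a median of 0.35. TTC5, which reads the nascent tubulin residues shown above, had 1228 counts with doxorubicin and 669 untreated, a log2 ratio of 0.23 (0.10 to 0.37). CNOT1, the scaffold of the CCR4-NOT deadenylase that removes poly(A) tails from many mRNAs, overlaps SETD6 over 10.01% of its exons. It was 2.03-fold higher (1.96 to 2.10) and at a log2 ratio of 0.70 after length adjustment. With GC content and both lengths adjusted together it was at 0.53, below the size limit.

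Tubulin modifying enzymes had 1 of 18 called higher and 2 lower, with a median of 0.23. TTLL12, a tubulin tyrosine ligase-like protein, was 1.51-fold higher (1.45 to 1.57). TPGS1, a subunit of a polyglutamylase complex, was 1.70-fold lower (1.54 to 1.88), and SVBP, the partner of the tyrosine-removing vasohibins, 1.57-fold lower (1.29 to 1.90) from 217 and 218 counts. None of these 3 was called after either adjustment.

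Among microtubule stabilisers and polymerases 2 of 21 were called lower and 0 higher, with a median of 0.08. MAP1LC3B, better known as the autophagosome protein LC3B, was 1.75-fold lower (1.70 to 1.80) and was also called lower after both adjustments, with 10.04% of its stretches shared. HAUS1, of the augmin complex that branches spindle microtubules, was 1.73-fold lower (1.66 to 1.80) and at -0.34 after length adjustment. Of the destabilisers and severing enzymes 1 of 7 was called lower. This was STMN1, stathmin, which binds free tubulin dimers, with 33836 counts with doxorubicin and 35292 untreated, 1.63-fold lower (1.60 to 1.65) and at -0.47 after length adjustment, below the size limit.

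Dynein, the minus-end motor, and dynactin had 1 of 18 genes called higher and 4 lower, with a median of 0.03. DYNLRB1 and DYNLL1, 2 dynein light chains, were 1.95-fold (1.88 to 2.01) and 1.75-fold lower (1.67 to 1.83). DCTN5, a dynactin subunit with 29.6% of its stretches shared, was 1.70-fold higher (1.61 to 1.79). After length adjustment the log2 ratios of these 3 were -0.26, -0.20 and 0.39, below the size limit, but DCTN5 was at 0.64 and called higher with GC content and both lengths adjusted. DYNLT3, another of the 4 called lower, was still called after length adjustment, at -0.68. With GC content and both lengths adjusted it was at -0.19 and not called.

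**Figure D4:**
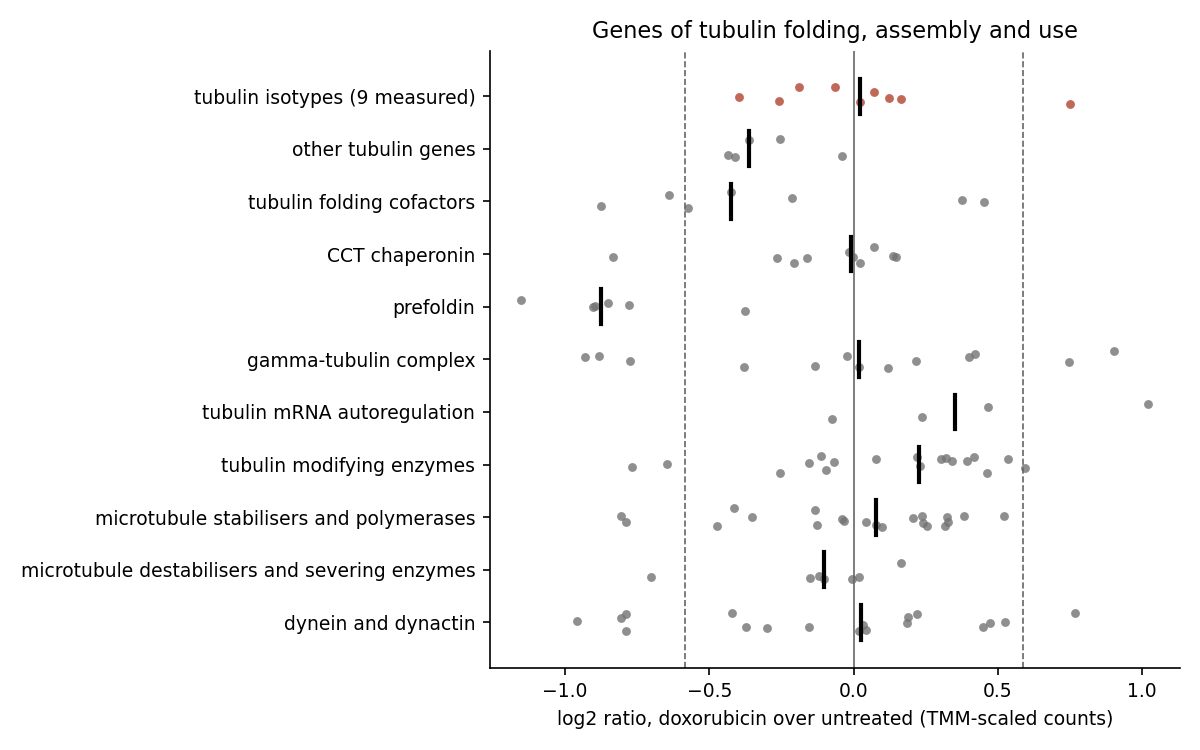
Log2 ratio of doxorubicin over untreated for each measured gene (points) of the tubulin isotypes (top, red) and of 10 lists of genes that fold, assemble, modify or use tubulin (grey), with the median of each list as a black bar and 1.5-fold as dashed lines. The isotypes gather near 0 with a median of 0.02, while 5 of 6 prefoldin genes lie past the lower line.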

How the data were processed

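RNA of 1 doxorubicin-treated and 1 untreated H9 sample was poly(A)-selected, per the labels. The authors deposited raw read counts per gene symbol, as whole numbers without scaling. The submitters' processing notes name HISAT2, featureCounts and hg19; the sources used here give no versions, annotation, strand or multi-mapping settings.

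Counts were scaled by TMM with edgeR 4.0.16 in R 4.3.3. Log2 ratios were taken after adding 0.5 to each count, over the whole table, and the Clopper-Pearson interval of the ratio was computed with scipy 1.17.1. Precision follows depth, and a count of 0 allows up to 3 counts, 0.0584 CPM with doxorubicin and 0.0911 untreated. The calling step was tested on simulated counts, with no result given here. Simulated counts cannot supply the spread between cultures, which was not measured, so no support for any call is drawn from them.

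Lengths, GC content and sequences came from GENCODE release 29, from 1 protein-coding transcript per gene, preferring APPRIS principal and RefSeq-paired transcripts and then the longest. They matched 98.1% of measured genes. Length adjustment subtracted a lowess curve of span 0.3, or robust regression splines of transcript length, coding length and GC content (statsmodels 0.14.6). Every position of a transcript started a stretch of 50 bases.

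The members and lists were chosen with earlier results of these data known. Named from each list were up to 2 highest and 2 lowest called genes, or the 2 with most counts where none was called, plus TTC5 and TUBB2B. MZT1, PFDN1, PFDN5, PFDN6, VBP1, TBCEL, DYNLT3, TUBG2, TUBD1, TUBB1, TUBB8 and the alpha genes outside the members are named outside this rule, after their values were seen. Alternatives were DESeq2 1.42.0 size factors, total counts, other limits, intervals, minimums and added counts, and the length adjustments.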

Additional observations from a re-analysis of the deposited data

How the results depend on the processing

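Over the 9 measured members and 8 alternative settings each, the calls and signs held except as follows, although sizes moved: adjusted for transcript length, TUBA1B was at 0.32, TUBA1A at 0.34, TUBG1 at -0.14 and TUBB4B at -0.01. TUBB2A was no longer called with a limit of 2-fold or a 99% interval, which left 0 members higher, as did a minimum of 500 counts. TUBG1 was called lower at a limit of 5 to 4, the single lower member. TUBA1C was at 0.0017 under total counts and TUBB at -0.0527 after the spline adjustment (GC content and both lengths). The summed beta ratio was at 0.0002 with DESeq2 size factors and 0.0665 with total counts, so it has no settled sign. Per kilobase of transcript TUBA1B held 88.4% of alpha with doxorubicin and 88.1% untreated, and TUBB 88.1% and 86.0% of beta. Of the 109 measured pathway genes, 8 were higher and 18 lower under total counts, and 1 was higher and 1 lower at 2-fold. No share over all genes was taken at either setting. At a limit of 5 to 4, 22 were higher and 31 lower, against 20.4% and 21.5% of all measured genes. After length adjustment 2 were higher and 4 lower, against 551 and 526 of the 11030 measured genes with lengths. After the spline adjustment 2 were higher and 2 lower, against 492 and 376 of the 11030. For these lists the adjustments were added with the data known. The cause of the other changes was not tested. No paired analysis was possible because each condition has 1 library, and leaving 1 out leaves no comparison.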

Other observations

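Alpha isotype genes outside the members were close to silent. TUBA3D had 37 counts with doxorubicin and 8 untreated, TUBA3E 7 and 2, TUBA8 23 and 21, and TUBAL3 6 and 12, while TUBA3C had 0 in both. TUBA3D, of a gene group known from testis, shares 51.8% of its stretches of 50 bases with other genes and lies below the minimum of 100 counts. TUBB1, the beta isotype of platelets, had 61 counts with doxorubicin and 52 untreated, and TUBB8, known from oocytes, had 0 in both. Delta-tubulin, TUBD1, was at a log2 ratio of -0.04, and TUBG2 at -0.26.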
